A study of Mus musculus with 43 samples.

Results

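Genes of the hyaluronan-based extracellular matrix of the brain were followed through 43 RNA-seq libraries of glia from the mouse cerebral cortex. They were the lecticans Vcan, Bcan, Ncan and Acan, the tenascins Tnr and Tnc, the hyaluronan link protein genes Hapln1, Hapln2 and Hapln4, and the hyaluronan synthase gene Has2. These 10 genes were taken by name out of the 55416 genes listed in each count table. Read counts were compared between Rag2-/- mice, which lack mature T and B cells, and littermate controls that carried 1 or 2 functional Rag2 alleles, in 4 acutely purified cell types, to ask whether adaptive immune cells shape glial gene expression in the healthy brain. The control group held Rag2+/- mice (4 of 6 for OPCs, astrocytes and microglia, 3 of 4 for oligodendrocytes) and Rag2+/+ mice for the rest.

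The Rag2-/- strain, B6.Cg-Rag2tm1.1Cgn/J, had been crossed with C57BL/6J to found the colony. All mice came from crosses of Rag2+/- parents, were of both sexes and 3 months old, and received no treatment. Libraries came from oligodendrocytes (4 control, 4 Rag2-/-), oligodendrocyte precursor cells (OPCs; 6 control, 5 Rag2-/-), astrocytes (6 and 6) and microglia (6 and 6). The cells were immunopanned one after another from a single suspension per mouse, with antibodies against CD45 for microglia, PDGFRα for OPCs, GalC for oligodendrocytes and HepaCAM for astrocytes. CD45 is also carried by macrophages, so the microglial gate could hold them. All libraries of a cell type were sequenced together on 1 lane, so that a difference between cell types and one between lanes cannot be told apart. The libraries are bulk samples, in which fewer cells of a type and less RNA per cell cannot be told apart.

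Each library held between 6499417 and 23118497 counts on genes. Levels are given as CPM, a gene's count scaled to a fixed total of counts on genes, with the SD over mice. Each purified population carried the highest summed level of its own 8 marker genes, and the libraries were not pure. In control astrocyte libraries the 8 oligodendrocyte markers reached 20.03% to 41.9% of their oligodendrocyte level, and in control oligodendrocyte libraries the 8 OPC markers reached 4.28% to 17.9% of their level in OPCs. Mitochondrial genes took 45.8% to 60.1% of the counts of oligodendrocyte libraries, 22.4% to 36.7% in OPCs, 22.5% to 45.1% in astrocytes and 6.76% to 11.7% in microglia. Rag2 itself was nearly silent in these cells, with at most 4 counts in any library and none in any Rag2-/- library, and so gave little check of the genotypes. Iftap, an annotated gene that spans Rag2 on the opposite strand, had at most 2 counts in Rag2-/- libraries and 14 to 208 in controls.

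Lecticans are large chondroitin sulfate proteoglycans that bind hyaluronan through their N-terminal end and tenascins through their C-terminal end. Link proteins hold the lectican on the hyaluronan chain, and tenascin-R, a trimer, ties neighbouring lecticans together. The resulting network forms the loose matrix of the brain, condenses into perineuronal nets around certain neurons and surrounds nodes of Ranvier. Glia make many of its parts, and its genes change with maturation of the oligodendrocyte lineage.

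The gene set is spread over 7 chromosomes, and 3 of the 4 lecticans lie beside a link protein gene of the set (coordinates in GRCm39). Vcan (ENSMUSG00000021614, chr13:89803431-89890814) lies 43480 bases from Hapln1 (ENSMUSG00000021613, chr13:89686581-89759950). Bcan (ENSMUSG00000004892, chr3:87894835-87910177) lies 16622 bases from Hapln2 (ENSMUSG00000004894, chr3:87926800-87934890). Ncan (ENSMUSG00000002341, chr8:70538926-70573523) and Hapln4 (ENSMUSG00000007594, chr8:70536106-70543533) overlap by 4608 bases on opposite strands, and 31.3% of the exonic bases of Hapln4 are shared with Ncan. Of the exonic bases of Ncan, 13.98% are shared with Hapln4 or a further annotated gene, Gm63832, so the counts of both members are uncertain. Acan (ENSMUSG00000030607, chr7:78702964-78764847) ends 2 bases from Hapln3, which is not in the set. Tnr (ENSMUSG00000015829, chr1:159351339-159759299), Tnc (ENSMUSG00000028364, chr4:63878014-63965443) and Has2 (ENSMUSG00000022367, chr15:56528342-56557999) have no such partner.

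The sequence upstream of 4 members is shown because together they stand for the main patterns across the cell types. Ncan was shared by OPCs and astrocytes, Acan and Tnr were highest in OPCs, and Hapln2 was highest in oligodendrocytes. The 220 bases run from 250 to 31 bases before the RefSeq start (RefSeq's GRCm38.p6 table). Their positions come from an exact match in GRCm39, at chr8:70573525-70573744 on the minus strand for Ncan, chr7:78702724-78702943 on the plus strand for Acan, chr1:159351089-159351308 on the plus strand for Tnr and chr3:87934849-87935068 on the minus strand for Hapln2. Capitals mark matches, on either strand, to the TATA box (searched as TATAAA), the CCAAT box (searched as CCAAT), the GC box (searched as GGGCGG) and the SOX core (searched as AACAAT).
Ncan: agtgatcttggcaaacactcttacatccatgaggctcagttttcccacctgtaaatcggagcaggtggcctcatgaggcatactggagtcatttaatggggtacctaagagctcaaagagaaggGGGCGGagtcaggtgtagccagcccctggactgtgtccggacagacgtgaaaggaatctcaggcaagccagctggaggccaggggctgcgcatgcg
Acan: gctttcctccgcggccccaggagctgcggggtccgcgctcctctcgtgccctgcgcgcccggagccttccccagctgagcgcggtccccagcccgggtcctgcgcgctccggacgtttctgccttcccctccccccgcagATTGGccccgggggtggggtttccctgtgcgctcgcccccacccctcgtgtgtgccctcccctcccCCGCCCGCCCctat
Tnr: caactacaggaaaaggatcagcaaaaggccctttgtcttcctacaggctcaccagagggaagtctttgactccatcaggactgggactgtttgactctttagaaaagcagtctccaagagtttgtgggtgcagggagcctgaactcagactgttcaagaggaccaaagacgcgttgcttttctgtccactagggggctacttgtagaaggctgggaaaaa
Hapln2: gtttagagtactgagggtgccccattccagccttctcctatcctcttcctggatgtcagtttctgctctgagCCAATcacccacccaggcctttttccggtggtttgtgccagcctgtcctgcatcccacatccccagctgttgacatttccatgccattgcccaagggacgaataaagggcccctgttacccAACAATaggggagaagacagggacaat
Ncan held 1 GC box match, Acan a CCAAT box and 2 overlapping GC boxes, all on the other strand, Hapln2 a CCAAT box and a SOX core match, and the printed bases of Tnr none. Of 32536 windows of 250 bases in the RefSeq table, 12.3% held the TATA box letters, 33.8% those of the CCAAT box, 33% those of the GC box and 9.35% those of the SOX core, on either strand. In the full 250 bases, Ncan had 1 further match, a TATA box in the 30 bases next to the start. In Hapln2, the 72 bases of the full window nearest the start lie inside the annotated gene, in an exon of a transcript that is not protein-coding, and the SOX core match is among them. A match is a description of these letters and not a binding site. RefSeq windows were found for 8 of the 10 members, all except Hapln4 and Has2.

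**Figure D1:**
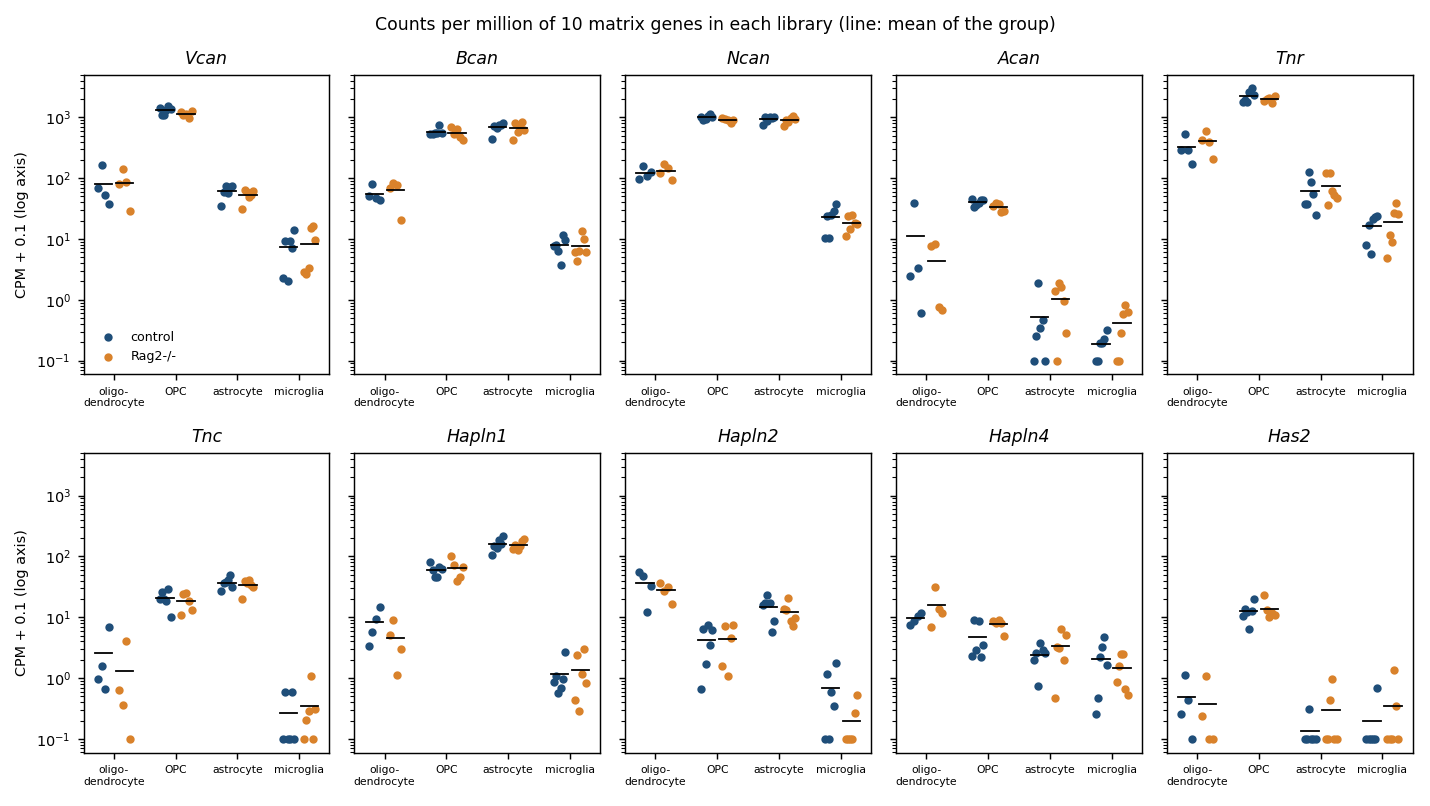
CPM of each of the 10 genes in every library, with 0.1 added, on a log axis, by cell type, with control and Rag2-/- libraries side by side and lines at the group means. Vcan, Acan, Tnr and Has2 were highest in OPCs, Bcan and Ncan were high in OPCs and astrocytes alike, Hapln1 and Tnc were highest in astrocytes and Hapln2 in oligodendrocytes, and the control and Rag2-/- libraries overlapped for each gene in each cell type.

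The first comparison asked in which purified cell type each gene was expressed. Control OPC and control oligodendrocyte libraries differed in 9 of the 10 members, against 26.5% of 21368 genes tested in the same contrast. Of these, 7 were higher in OPCs (background 14.3%) and 2 lower (background 12.2%). Differences are log2 fold changes with their SE, from edgeR's quasi-likelihood test on all 43 libraries with TMM scaling, with p adjusted by Benjamini-Hochberg over all genes tested, and called at 0.05. Has2 passed the filter on low counts only through the OPC libraries in which it is high, so that it had to differ there, and its call counts as no evidence. The median of all genes in this contrast was 0.17 under TMM and 1.21 when libraries were scaled by their totals, which moved the share of calls that were higher in OPCs from 53.9% to 92.8%. For OPCs against astrocytes the median moved from 0.14 to 0.52 and that share from 58.0% to 78.3%, and for astrocytes against oligodendrocytes from -0.03 to 0.62 and from 44.7% to 75.7%. Between Rag2-/- OPCs and oligodendrocytes all 10 members were called (background 27.8%), with the same direction as in controls for all 10. The call of Has2 among them again counts as no evidence.

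Among the lecticans, Vcan, which codes for versican, the largest of them, was highest in OPCs. Control OPC libraries ran from 1098 to 1558 CPM with a median of 1354 CPM, while the 4 control oligodendrocyte libraries held 69.7, 164, 53.6 and 37.3 CPM. Astrocytes ran from 34.6 to 74.4 CPM (median 64.9) and microglia averaged 7.23 ± 4.62 CPM (SD, n = 6). Every OPC library lay above every library of the other types. Vcan was higher in OPCs than in oligodendrocytes by 3.02 ± 0.44 (edgeR, adjusted p = 1.225e-06), and higher than in astrocytes by 4.04 ± 0.39 (edgeR, adjusted p = 6.47e-11). Astrocytes were below oligodendrocytes by -1.02 ± 0.39 (edgeR, adjusted p = 0.0361), and the difference was -0.51 without oligodendrocyte control replicate 3 (adjusted p = 0.338). The call was lost under scaling by library totals (-0.41, adjusted p = 0.456) or by totals without mitochondrial genes (-0.86, adjusted p = 0.0919). It was also lost in 18 of the 43 fits that left out 1 library: those without astrocyte control 1, 2 or 4, oligodendrocyte control 1, 3 or 5, oligodendrocyte Rag2-/- 1, 3 or 5, OPC control 1, 2, 3, 4 or 6, or OPC Rag2-/- 1, 2, 3 or 6.

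Bcan and Ncan, for brevican and neurocan, the brain-restricted lecticans, were shared between OPCs and astrocytes. Bcan was 527 to 735 CPM in control OPCs (median 552) and 440 to 804 CPM in control astrocytes (median 729), against 51.2, 81.4, 46.4 and 44.0 CPM in oligodendrocytes. The OPC and astrocyte ranges overlapped, and both lay above every oligodendrocyte library. Bcan was higher than in oligodendrocytes by 2.33 ± 0.27 in OPCs (edgeR, adjusted p = 5.3e-09) and by 2.96 ± 0.27 in astrocytes (edgeR, adjusted p = 2.11e-11). OPCs were below astrocytes by -0.63 ± 0.22 (edgeR, adjusted p = 0.0231), a call that was lost when libraries were scaled by their totals (-0.25, adjusted p = 0.447). Ncan was 911 to 1149 CPM in control OPCs and 739 to 1031 CPM in control astrocytes, with 98.0, 161, 107 and 125 CPM in oligodendrocytes. The difference between OPCs and astrocytes was -0.27 ± 0.18 (edgeR, adjusted p = 0.287), and turned to 0.11 under scaling by totals. Ncan exceeded its oligodendrocyte level by 1.98 ± 0.22 in OPCs (edgeR, adjusted p = 3.61e-09).

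Acan, for aggrecan, the main proteoglycan of perineuronal nets, was low in all of these cells. Control OPCs held 33.5 to 45.3 CPM with a median of 40.7 CPM, astrocytes averaged 0.428 CPM, with 1 library at 1.80 CPM, and microglia 0.0888 CPM. Of the oligodendrocyte controls, replicate 3 held 39.0 CPM and the others 2.37, 3.22 and 0.502 CPM. With that library the difference between OPCs and oligodendrocytes was 1.18 ± 0.72 and was not called (edgeR, adjusted p = 0.234), and without it 3.06 (edgeR, adjusted p = 0.00434). With the mouse as a block, all libraries included, it was 2.49 (edgeR, adjusted p = 0.026). In Rag2-/- mice, where oligodendrocyte libraries held 7.498, 8.15, 0.651 and 0.588 CPM, it was 2.36 ± 0.79 (edgeR, adjusted p = 0.0218), and that call was lost without oligodendrocyte Rag2-/- replicate 5 or 6. Acan exceeded its astrocyte level in OPCs by 6.203 ± 0.83 (edgeR, adjusted p = 1.03e-07).

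Tnr, which codes for the matrix-crosslinking tenascin-R, was the most abundant member per kilobase of exon in 11 of 11 OPC libraries and in 8 of 8 oligodendrocyte libraries. Its level in control OPCs was 1788 to 3020 CPM with a median of 2120 CPM. The oligodendrocyte controls held 292, 540, 294 and 170 CPM, and the astrocyte controls 24.3 to 125 CPM (median 46.2). The ranges of the 3 cell types did not overlap. Tnr was higher in OPCs than in oligodendrocytes by 1.78 ± 0.45 (edgeR, adjusted p = 0.00254) and than in astrocytes by 4.81 ± 0.44 (edgeR, adjusted p = 1.24e-11). In Rag2-/- mice the OPC to oligodendrocyte difference was 1.34 ± 0.45 (edgeR, adjusted p = 0.0228), a call lost without oligodendrocyte Rag2-/- replicate 6 (adjusted p = 0.075). Tnc, for tenascin-C, was highest in astrocytes, with 27 to 49.5 CPM in controls against 10.0 to 29.4 CPM in OPCs. The difference between OPCs and astrocytes, -1.25 ± 0.53, was not called (edgeR, adjusted p = 0.0733), but was without oligodendrocyte control 5 or 6 or oligodendrocyte Rag2-/- 3, 5 or 6 (adjusted p = 0.0237 to 0.0462). Oligodendrocyte controls held 0.870, 1.51, 0.555 and 6.94 CPM, and Tnc exceeded them in astrocytes by 3.04 ± 0.69 (edgeR, adjusted p = 0.000528). The OPC to oligodendrocyte call for Tnc, 1.79 ± 0.66 (edgeR, adjusted p = 0.0394), was lost in 11 of the 43 fits with 1 library left out (oligodendrocyte control 1, 3 or 5, OPC control 1 to 5, OPC Rag2-/- 2, 3 or 6), and the difference was 3.36 without oligodendrocyte control replicate 6. It was also lost with DESeq2 size factors (1.68, adjusted p = 0.0558) and in the DESeq2 test (1.63, adjusted p = 0.0572).

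Among the link protein genes, Hapln1 was highest in astrocytes, and Hapln2 and Hapln4 in oligodendrocytes. Hapln1, whose product stabilises lecticans on hyaluronan in nets, held 108 to 215 CPM in control astrocytes (median 155) against 45.6 to 81.7 CPM in OPCs. Oligodendrocyte controls held 3.24, 5.56, 9.21 and 14.6 CPM. The 3 ranges did not overlap, and OPCs were below astrocytes by -1.78 ± 0.36 (edgeR, adjusted p = 0.000159) and above oligodendrocytes by 1.75 ± 0.43 (edgeR, adjusted p = 0.00213).

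Hapln2, for the link protein of nodes of Ranvier, was highest in oligodendrocytes, with 55.3, 47.8, 12.2 and 33.0 CPM in controls. Control OPCs held 0.568 to 7.25 CPM, and astrocytes 5.59 to 22.9 CPM with a median of 16.4 CPM. The lowest oligodendrocyte library lay within the astrocyte range. OPCs were below oligodendrocytes by -4.16 ± 0.62 (edgeR, adjusted p = 1.66e-06) and below astrocytes by -2.16 ± 0.56 (edgeR, adjusted p = 0.00239). Astrocytes were below oligodendrocytes by -1.998 ± 0.58 (edgeR, adjusted p = 0.00576), which was lost under scaling by library totals (-1.37, adjusted p = 0.0595). In CPM, the astrocyte level of Hapln2 was 39.1% of its oligodendrocyte level, inside the 20.03% to 41.9% range of the 8 oligodendrocyte markers in the same libraries. The part of oligodendrocyte RNA in the astrocyte level was not tested.

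Hapln4, for another link protein, found around inhibitory synapses, was low in every cell type. The oligodendrocyte controls held 7.43, 8.47, 10.3 and 11.9 CPM, and control OPCs 2.09 to 8.77 CPM with a median of 3.07 CPM. It was lower in OPCs than in oligodendrocytes by -2.10 ± 0.58 (edgeR, adjusted p = 0.00577), but not under scaling by totals (-1.04, adjusted p = 0.135). Summed neuronal marker levels were also highest in oligodendrocyte libraries, 625.3, 437, 1297 and 1645 CPM in controls against 407 to 766 CPM in OPCs and 144 to 182 CPM in astrocytes, and their part in the Hapln4 level was not tested.

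Has2, whose product makes hyaluronan at the plasma membrane, was highest in OPCs. Control OPCs held 6.25 to 19.8 CPM with a median of 12.3 CPM. Oligodendrocytes averaged 0.382 ± 0.457 CPM (SD, n = 4), and 5 of 6 astrocyte and 5 of 6 microglial control libraries were at 0. The astrocyte controls held 2 counts in all against 762 in OPCs, an OPC level 320-fold higher by depth (88.4 to 2651, exact 95% interval, counting error only). No test is given between OPCs and the other types, for the reason stated for the filter.

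**Figure D2:**
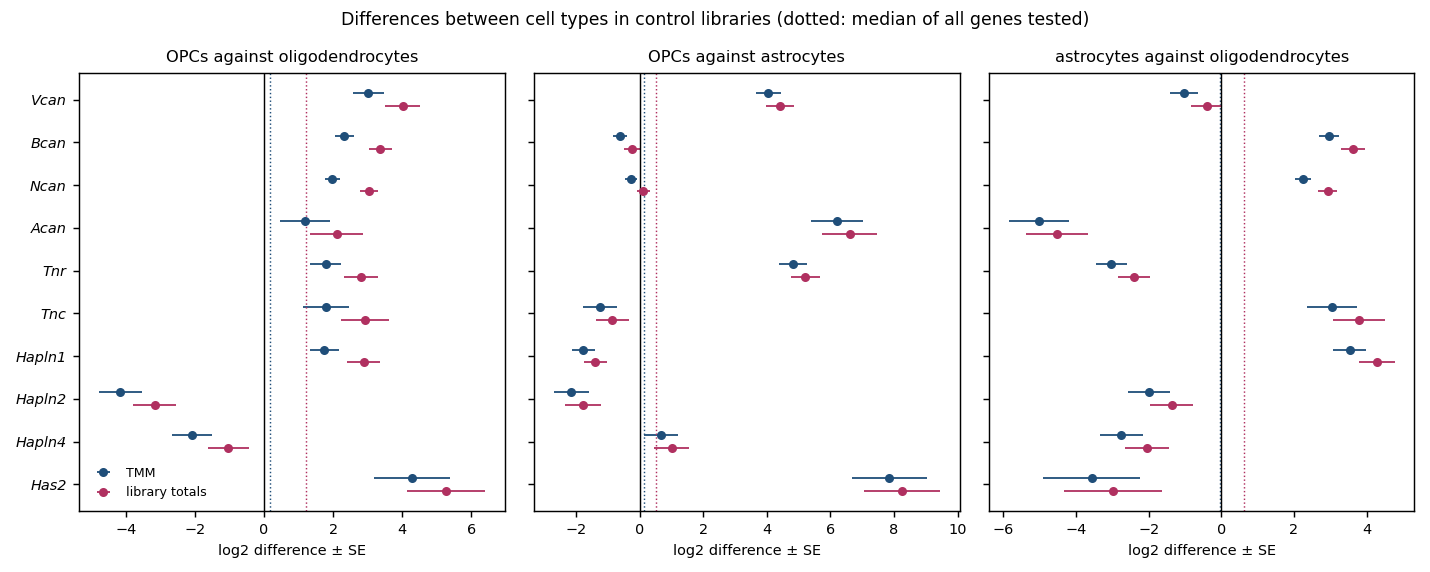
log2 differences with SE bars between cell types in control libraries for the 10 genes (rows), scaled by TMM (blue) or by library totals (red), with the median of all genes tested as dotted lines. Scaling by totals moved each gene with the median, and turned Ncan between OPCs and astrocytes from -0.27 to 0.11. The differences of the other 9 genes in the 3 panels kept their sign.

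Against astrocytes, control OPCs were called in 7 of the 10 members (background 29.9%), of which 4 were higher (background 17.3%) and 3 lower (background 12.6%). Has2 is among the 4 that were higher, here and in Rag2-/- mice, and its call counts as no evidence. Astrocytes were called against oligodendrocytes in 10 (background 36.2%). Under scaling by library totals 7 were called, without Vcan, Hapln2 and Has2, against 9161 of 21368 genes. Has2, among the 10, had an adjusted p of 0.033 (edgeR), 0.053 with the mouse as a block, and lost its call without astrocyte control 1, 4 or 6 or oligodendrocyte control 3 or 5. The corresponding counts in Rag2-/- mice were 7 (25.3%) and 9 (39.3%). Under totals they were 6 (against 7092 of 21368 genes), without Bcan (-0.26, edgeR adjusted p = 0.475), and 7 (against 9475 of 21368 genes). The 7 were without Vcan (-0.68, edgeR adjusted p = 0.1999) and Hapln2 (-1.22, edgeR adjusted p = 0.0891). Hapln4 also lost its call under totals between Rag2-/- OPCs and oligodendrocytes (-1.07, edgeR adjusted p = 0.136). The direction was the same in the 2 genotypes for all 10 members in both contrasts. In Rag2-/- mice, leaving out 1 library also ended the calls of Bcan between OPCs and astrocytes (-0.61 without astrocyte 2 or 5, -0.63 without OPC 4), Vcan between astrocytes and oligodendrocytes (-0.86 without oligodendrocyte 3) and Hapln4 between OPCs and oligodendrocytes (-1.59 without oligodendrocyte 3). Microglia held little of any member. Their highest mean in controls was Ncan, at 22.5 ± 10.6 CPM, followed by Tnr at 16.4 ± 7.91 CPM (SD, n = 6). In controls the other types were called above microglia in 9 (OPCs), 7 (astrocytes) and 9 (oligodendrocytes) of the members. Of 21368 genes tested, 6920, 6564 and 6265 were called above microglia in the same order (58.2%, 58.7% and 56.4% called in either direction). The OPC counts of both genotypes include Has2, whose call there counts as no evidence. In Rag2-/- mice the counts were 10, 8 and 9 members, against 6926, 6555 and 6159 genes (57.3%, 58.6% and 57.6% called in either direction). Of these, the Rag2-/- call of Hapln4 in astrocytes was lost without astrocyte 4 (1.30) and that of Tnc in oligodendrocytes without oligodendrocyte 5 (0.94). Calls that the controls lacked appeared with 1 library left out for Acan in astrocytes (without astrocyte control 1 or 6 or oligodendrocyte control 3), Hapln4 in OPCs (without OPC control 5 or microglial control 5) and Has2 in oligodendrocytes (without oligodendrocyte control 6 or microglial control 6).

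Levels of the genes were next set against each other per kilobase of exon. The summed level of the 10 genes was 434 ± 61.7 CPM per kb in control OPCs (n = 6), 213 ± 31.6 in astrocytes (n = 6), 60.1 ± 22.3 in oligodendrocytes (n = 4) and 5.61 in microglia. In control OPCs the per-kb level was made up of Tnr (37.9%), Ncan (23.5%), Vcan (18.3%) and Bcan (15.5%), with the other 6 genes filling the rest. In control astrocytes Ncan (44.5%) and Bcan (37.4%) led, followed by Hapln1 (10.4%), while Vcan held 1.73%. In control oligodendrocytes Tnr (39.0%) and Ncan (21.4%) led, followed by Hapln2 (12.1%), Bcan (10.96%) and Vcan (7.55%). Ncan was the highest member in 11 of 12 astrocyte libraries and Bcan in 1.

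**Figure D3:**
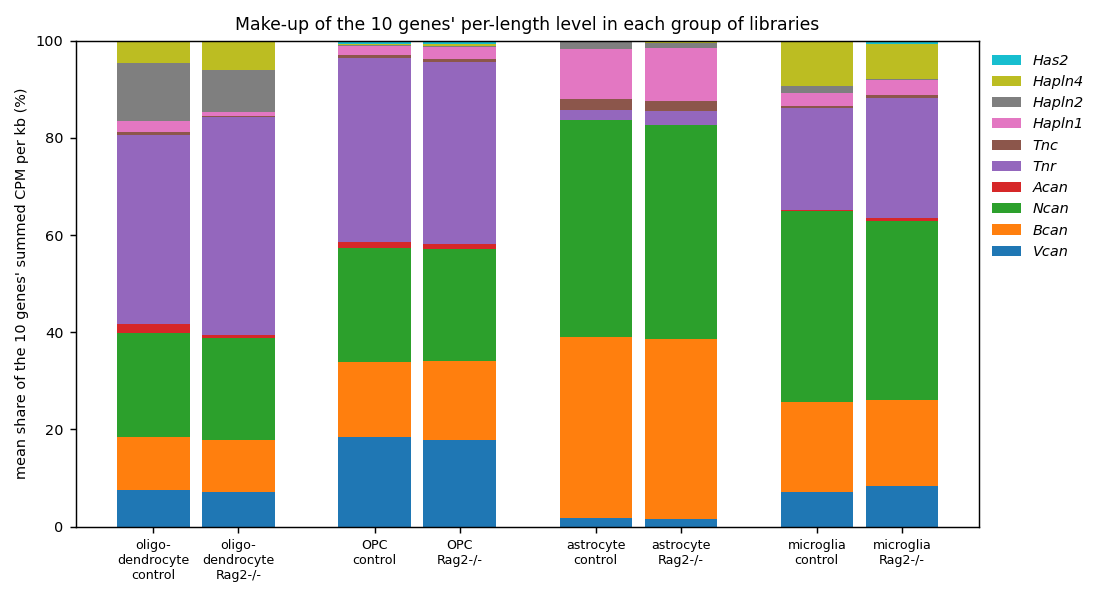
Share of each of the 10 genes in their summed per-kb level (CPM per kb), as stacked bars by cell type and genotype, with the mean over libraries. Tnr took 37.9% in control OPCs and 39.0% in control oligodendrocytes, and Ncan 44.5% in control astrocytes.

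The ratio of a lectican to its neighbouring link protein gene differed between cell types. Per kilobase, Vcan stood at 9.37 times the level of Hapln1 in control OPCs and at 0.167 of it in control astrocytes. All 6 OPC libraries had Vcan above Hapln1 and none of the 6 astrocyte libraries did. Bcan stood at 83.1 times the level of Hapln2 in control OPCs and at 28.8 times in control astrocytes. In oligodendrocytes the order was not stable, with a ratio of 0.913 in controls (Bcan higher in 2 of 4 libraries) and 1.36 in Rag2-/- mice (3 of 4). Ncan was 5.16 times Hapln4 in oligodendrocytes, 87.8 times in OPCs and 164 times in astrocytes, ratios that the exonic bases shared by the pair make uncertain. Acan and Hapln3 were at 1.05 in OPCs and at 0.038 in astrocytes.

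Because OPCs mature into oligodendrocytes, the level that each member kept in oligodendrocyte libraries was set beside that of OPC markers. In controls Vcan held 6.19% of its OPC level in CPM, Bcan 9.68%, Ncan 12.1%, Tnr 14.5%, Tnc 12.0%, Hapln1 13.5% and Has2 3.07%. The 8 OPC markers held 4.28% to 17.9% (median 6.92%). Each of these 7 percentages except that of Has2 lay within the range of the OPC markers, and Has2 lay below it. Olig1 (17.9%) and Gpr17 (12.9%) set the top of that range, and the other markers held at most 7.67% (Sox6). Bcan, Ncan, Tnr, Tnc and Hapln1 lay above these other markers, and Vcan lay among them. Acan held 28.1%, above the range, with 1 library at 39.0 CPM. Oligodendrocyte libraries carried the largest mitochondrial share, and with TMM scaling the percentages were about double, 12.3% for Vcan, 19.9% for Bcan, 25.2% for Ncan and 29.3% for Tnr beside a marker median of 13.7%. In Rag2-/- mice the CPM values were 7.28% for Vcan, 11.4% for Bcan, 14.6% for Ncan, 20.2% for Tnr, 12.6% for Acan and 6.81% for Hapln1 against 6.63% to 26.2% (median 11.1%) for the markers, and Tnc (6.49%) and Has2 (1.99%) lay below that range. The OPC markers also differed among the oligodendrocyte libraries, with sums of 406, 722, 395 and 175 CPM in controls and 603, 918, 409 and 168 CPM in Rag2-/- mice, and Vcan and Tnr were highest in the library with the most and lowest in that with the least. Tnc and Hapln1 were highest in control replicate 6, which had the highest astrocyte marker sum, at 1959 CPM against 956, 959 and 1229 CPM. The part of OPC or astrocyte RNA in the oligodendrocyte levels was not tested.

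In control astrocytes Vcan held 4.68%, Tnr 2.73% and Acan 1.07% of its OPC level, beside 1.43% to 24.8% (median 1.91%) for the OPC markers.

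**Figure D4:**
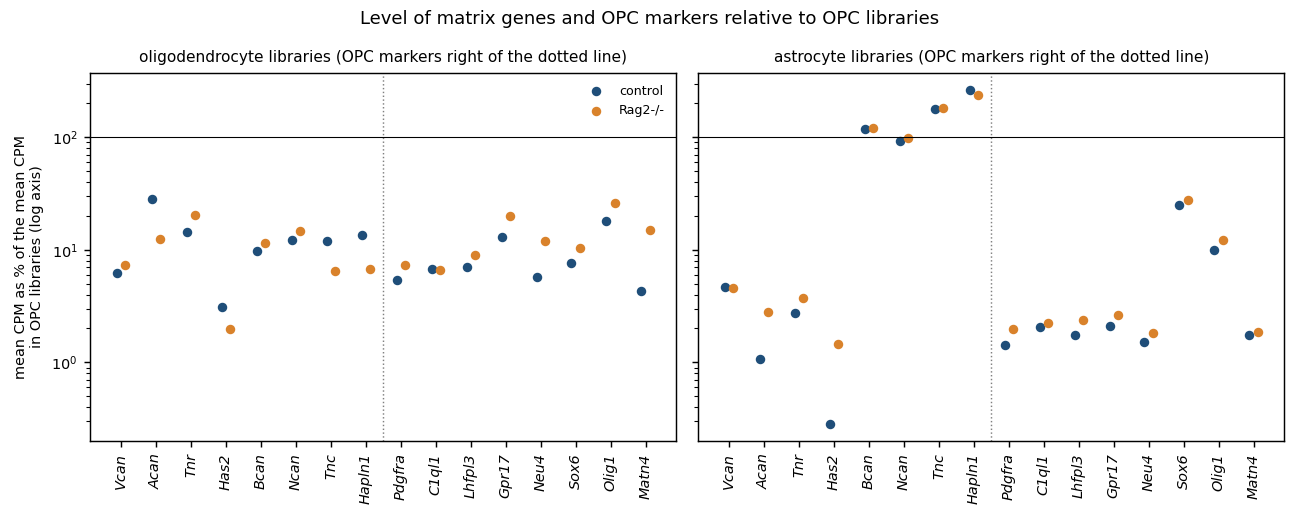
Level of 8 members in oligodendrocyte and astrocyte libraries as a percentage of their level in OPCs (group mean CPM, log axis), beside the 8 OPC markers, for both genotypes. Hapln2 and Hapln4, lower in OPCs than in oligodendrocytes, are not drawn. In control oligodendrocytes Vcan stood at 6.19% and Tnr at 14.5%, inside the marker range of 4.28% to 17.9%. Olig1 was the top of that range, and Tnr lay above every other marker.

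The second comparison asked whether loss of Rag2 changed these genes. None of the 10 members was called between Rag2-/- and control mice in any cell type. The test covered all 10 members for OPCs (0.00592% of all genes called), 9 for oligodendrocytes (0%), 8 for astrocytes (0.00679%) and 5 for microglia (0.00667%), the others having too few counts (edgeR's quasi-likelihood test per cell type with sex as a covariate). At an unadjusted p under 0.05 there were 0 members in any of these fits. Of all genes tested, 467 (3.38%) were under it for oligodendrocytes, 679 (4.02%) for OPCs, 423 (2.87%) for astrocytes and 436 (2.91%) for microglia. At such shares so few members could hold none by chance. DESeq2 called 203, 5, 1 and 3 genes in the same order and no member. No member's control and Rag2-/- libraries stood apart in any cell type, against 1.98%, 0.39%, 0.133% and 0.117% of the genes that averaged 10 counts or more.

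In OPCs, Vcan was 1247, 1103, 1154, 968 and 1287 CPM in Rag2-/- mice against 1098 to 1558 CPM, a log2 difference of -0.13 ± 0.10 (edgeR, adjusted p = 0.9998). Astrocyte marker sums of the OPC libraries varied more among Rag2-/- mice than among controls, and the groups overlapped. Astrocyte marker sums were 3061 to 3843 CPM in controls and 8129, 4959, 2952, 4493 and 3646 CPM in Rag2-/- mice, OPC marker sums had medians of 4911 and 4231 CPM, and their part in these differences was not tested. Without replicate 1 of the Rag2-/- OPCs, Vcan differed by -0.12 and Hapln1, highest in astrocytes, by -0.079, against 0.16 ± 0.20 with it. Tnc, also highest in astrocytes, moved the other way, to 0.082 without that library from -0.07 ± 0.27 with it. Tnr was 1882, 2018, 2056, 1752 and 2217 CPM against 1788 to 3020 CPM, a difference of -0.12 ± 0.13. Bcan differed by -0.01 ± 0.10 and Ncan by -0.10 ± 0.09. The largest difference in OPCs was that of Hapln4, 0.73 ± 0.45, with 8.43, 7.81, 8.92, 7.89 and 4.80 CPM in Rag2-/- mice. In astrocytes Tnr differed by 0.47 ± 0.31 and the rest of the members tested by -0.15 to 0.58. In microglia Ncan was the member with the smallest p, at -0.33 ± 0.26.

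In oligodendrocytes Tnr was 419, 591, 386 and 210 CPM in Rag2-/- mice against 292, 540, 294 and 170 CPM, a log2 difference of 0.39 ± 0.27, and Vcan was 78.6, 143, 85.01 and 28.6 CPM against 69.7, 164, 53.6 and 37.3 CPM, 0.23 ± 0.39. Within each pair of littermates the Tnr value of the Rag2-/- mouse was the higher in all 4 pairs, as was the OPC marker sum in 3 of the 4, and the part of OPC RNA in this was not tested. The share of all genes with such an order was not counted, so the order is a description of Tnr only. Pair 6 set a male control against a female Rag2-/- mouse. Hapln2 held 36.9, 27.4, 31.7 and 16.5 CPM against 55.3, 47.8, 12.2 and 33.0 CPM, -0.04 ± 0.42. Tnc (-1.87 ± 2.08), Acan (-1.23 ± 0.99) and Hapln1 (-1.04 ± 0.75) had the largest SEs in this cell type, with adjusted p = 0.998 (edgeR) for each.

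**Figure D5:**
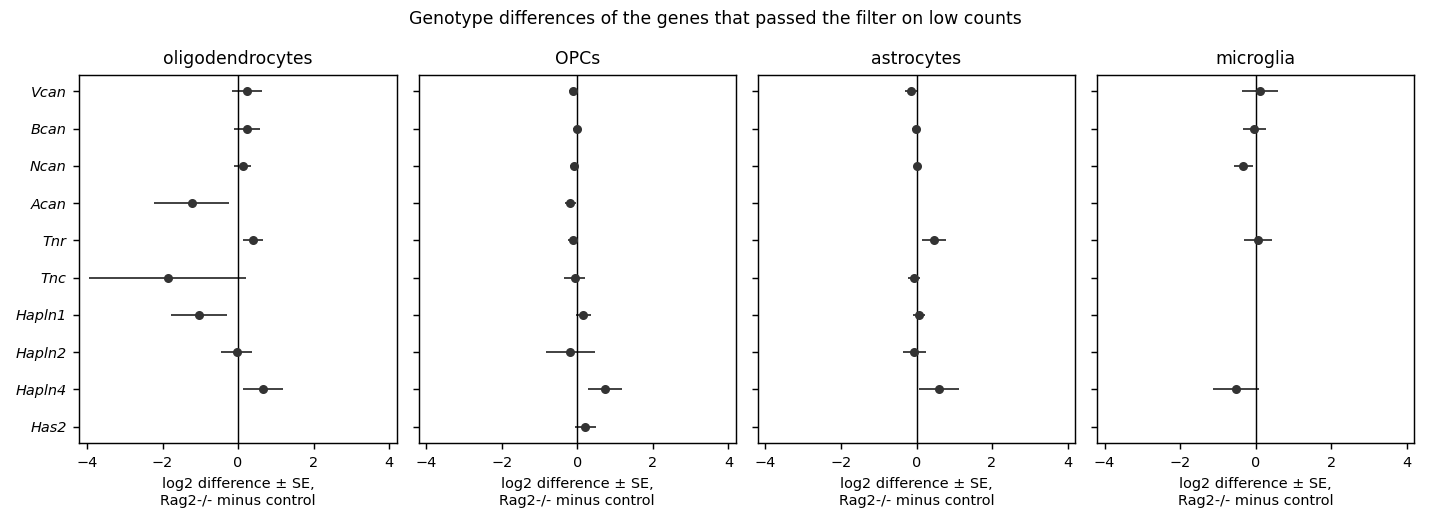
log2 differences of Rag2-/- against control libraries with SE bars for each member tested, in the 4 cell types. In OPCs Vcan lay at -0.13 and Tnr at -0.12, and the SE of Tnc in oligodendrocytes was 2.08.

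The genotype difference was also compared between cell types, by an F test for the interaction in the fit to all 43 libraries. None of the 10 members was called, against 53 of 21368 genes (0.248%; 5 genes with the mouse as a block), and the smallest p among the members was that of Acan (edgeR, adjusted p = 0.504). Nor was any member called between the sexes, where 0.0362% of all genes were called for oligodendrocytes, 0.0296% for OPCs, 0.0407% for astrocytes and 0.0467% for microglia. Of the members, 2 had an unadjusted p under 0.05, Acan in oligodendrocytes (adjusted p = 0.602) and Tnr in astrocytes (adjusted p = 0.715, edgeR). Of all genes tested for sex, 8.23% were under that level for oligodendrocytes, 4.30% for OPCs, 6.73% for astrocytes and 3.92% for microglia. Tnr was 45.5 ± 8.66 CPM (SD, n = 5) in female and 82.9 ± 42.4 CPM (SD, n = 7) in male astrocyte libraries, a difference of -0.99 ± 0.32 on the log2 scale.

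The other genes that build, modify, bind and cut this matrix, 65 in 7 lists, were read in the same fits. In control OPCs against control astrocytes, where 17.3% of all genes were higher and 12.6% lower, 4 of 5 other chondroitin sulfate proteoglycan genes were higher and none lower (median 2.79, against 0.14 for all genes), as were 7 of the 9 tested genes of chondroitin sulfation and epimerisation (median 2.28). Genes of chondroitin chain synthesis were 2 higher and 1 lower of 12, receptors for lecticans and tenascins 6 higher and 1 lower of 9, hyaluronan turnover and receptors 3 higher and 1 lower of 10, and lectican-cleaving proteases with their inhibitors 4 higher and 4 lower of 14. Of the 4 tested remaining family members 1 was higher, Hapln3. Xylt1, which starts the chondroitin chain on the core protein, was 860 ± 108 CPM in control OPCs and 135 ± 12.7 CPM in control astrocytes, a difference of 2.29 ± 0.29 (edgeR, adjusted p = 3.59e-08). Chst11, a chondroitin 4-O-sulfotransferase, was 295 ± 55.5 CPM and 43.7 ± 8.10 CPM, a difference of 2.37 ± 0.25 (edgeR, adjusted p = 3.54e-10). Both act on the chains that the lecticans carry. Csgalnact1, which starts the repeating disaccharide, was lower in OPCs by -1.72 ± 0.41 (edgeR, adjusted p = 0.00119). Chsy1, which extends the chain, was 46.8 ± 11.5 CPM in OPCs and 48.2 ± 3.80 CPM in astrocytes (-0.43 ± 0.32, edgeR, adjusted p = 0.327), and Ust, a uronyl 2-sulfotransferase, was higher in OPCs by 2.28 ± 0.41 (edgeR, adjusted p = 2.07e-05).

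Ptprz1, a receptor phosphatase whose secreted form, phosphacan, is itself a matrix proteoglycan, was 3054 ± 498 CPM in control OPCs and 1189 ± 166 CPM in control astrocytes (edgeR, 0.98 ± 0.29, adjusted p = 0.00927). Cspg4, the NG2 proteoglycan of OPCs, differed more, by 5.64 ± 0.55 (edgeR, adjusted p = 7.20e-11), while for Cspg5 the difference was -0.0005 ± 0.25. Among the receptors, Cntn1, a binding partner of tenascin-R on the cell surface, was higher by 3.04 ± 0.26 (edgeR, adjusted p = 2.63e-12) and Ptprs, a receptor for chondroitin sulfate chains, by 1.08 ± 0.12 (edgeR, adjusted p = 1.25e-09). Itgav, an integrin subunit, was higher by 0.55 ± 0.14 (edgeR, adjusted p = 0.00173). The tissue inhibitors of metalloproteinases Timp3 and Timp4 were lower in OPCs than in astrocytes by -1.09 ± 0.23 and -0.83 ± 0.22 (edgeR, adjusted p = 0.000214 and 0.00395).

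Against control oligodendrocytes, where 14.3% of all genes were higher in OPCs and 12.2% lower under TMM, control OPCs were higher in 3 of 12 chain synthesis genes, 4 of 9 sulfation genes, 3 of 5 other proteoglycans and 2 of 4 other family members, with none lower in these lists. Receptors were 5 higher and 1 lower of 9, proteases and inhibitors 6 higher and 2 lower of 14, and hyaluronan turnover genes 2 higher and 1 lower of 10. Control microglia, low in the members, carried the hyaluronan receptor gene Cd44 at 192 ± 34.1 CPM. They held Stab1, from the list of hyaluronan turnover and receptors, at 210 ± 29.2 CPM. OPCs were below them by -4.75 ± 0.50 for Cd44 (edgeR, adjusted p = 7.77e-11) and by -4.58 ± 0.52 for Stab1 (edgeR, adjusted p = 5.33e-10). Lyve1, another hyaluronan receptor, which also marks macrophages at the borders of the brain, was 43.5 ± 25.4 CPM in control microglia and at most 3.87 CPM on average in the other types. Timp2 (258 ± 42.7 CPM), the epimerase gene Dse (33.0 ± 4.53 CPM) and the synthase gene Has3 (7.58 ± 3.89 CPM) were also highest in microglia, and OPCs were below them by -1.26 ± 0.14, -1.72 ± 0.55 and -1.68 ± 0.65 (edgeR, adjusted p = 3.89e-10, 0.00723 and 0.0254). Has1 stayed at or below 2.98 CPM on average in all 4 types. No gene of the 7 lists was called for genotype or sex in any cell type, and 1, Dcn, which is outside the naming rule and was chosen after its value was seen, was called in the genotype by cell type test (edgeR, adjusted p = 0.0476).

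The genes whose pattern over the 43 libraries was most like that of each member were ranked by Pearson's r of log2 (CPM + 0.5), as a description, since libraries of one cell type share their lane and purification. For Vcan they were Cntn1 (0.986), Fxyd6 and Chl1, and for Tnr Gpr17 (0.985), Lhfpl3 and Sema5a. For Acan they were Dscam (0.965), C1ql1 and Adam12, and for Has2 Abhd2 (0.958), Loricrin and Plppr1. Bcan was most like Adcyap1r1 (0.987), Ncan and Ntrk2, and Ncan most like Ptn (0.991), Mtss2 and Slitrk2. Tnc was most like Slc38a3 (0.963) and Rfx4, and Hapln1 most like Gpc6 (0.978), Sparcl1 and Igdcc4. Hapln2 was most like Mog (0.961), which codes for a myelin protein, and Plekhh1. Hapln4 had no close match, the highest being Ddn at 0.796, followed by Cplx1 and mt-Tp.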

How the data were processed

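Cortical cells of each mouse were immunopanned, and RNA was amplified with the Nugen Ovation V2 kit and sequenced as read pairs. The authors aligned the reads to GRCm39 with STAR 2.7.8a and counted them per gene of Ensembl 104 with HTSeq 0.13.5. Each deposited file holds raw counts of whole read pairs per gene for 1 library, with no normalization. Gene symbols and positions were matched by identifier to the reference annotation of GRCm39 (54749 of 55416 identifiers). Totals leave out the rows that name no gene, which held 33.5% to 52.0% of the counts, and CPM were computed on the remaining 6499417 to 23118497 counts (median 10447042). A strand setting of the counting is not given in the sources used here, nor is the treatment of reads in overlapping genes, which may have been counted for either gene or for neither. The p-values of the tests within a cell type measure the spread between mice. Those between cell types and for the interaction come from the fit to all libraries. That fit treated libraries of the same mouse as independent, except where the mouse was a block. Its p-values measure the residual spread over libraries of every cell type, including types outside the contrast.

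Genotype and sex were tested per cell type with edgeR 4.0.16 (quasi-likelihood, TMM, filterByExpr with a minimum count of 10 and a total of 15, condition and sex as terms), and cell types within a genotype and the interaction in 1 fit to the 43 libraries (group and sex). Adjusted p values (Benjamini-Hochberg) under 0.05 were called, and SEs are the absolute log2 difference over the square root of F. R 4.3.3, limma 3.58.1, DESeq2 1.42.0, Python 3.11.15, pandas 2.3.3, numpy 2.4.6, scipy 1.17.1 and matplotlib 3.10.9 were used. The scripts were tested on simulated counts. Alternatives were no filter or one on the mean count, DESeq2 size factors or test, scaling by totals with or without mitochondrial genes (cell types and interaction only), no sex term, Rag2+/- controls alone, a replicate block and leaving out each library. Replicate numbers mark littermate pairs in the labels, and pairs deviated together only weakly. The mean correlation of their deviations was 0.111 in oligodendrocytes, 0.0889 in OPCs (lowest -0.0208), 0.135 in astrocytes and 0.0865 in microglia, against -0.036 to -0.018 for other pairs, and 0.0279 for libraries of the same mouse across cell types. No 2 libraries of a group were alike within sampling noise. The genes named are the 10 members, the 3 pathway genes per list with the highest control level, the 3 genes with the most similar pattern (for Tnc and Hapln2, some are not reported here) and the link protein gene next to each lectican. The members and lists were chosen with earlier results of these data known.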

Additional observations from a re-analysis of the deposited data

Results flagged for a closer look

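In 73 groups of libraries whose highest count was at least 10, 11 had 1 library far from the others by Dixon's test. Some groups with few counts passed that rule only through the library that then stood out. These were Tnc and Has2 in microglial Rag2-/- replicate 4 (10 and 13 counts) and Has2 in oligodendrocyte Rag2-/- replicate 3 (11 counts). Their outliers were largely set by the rule and count as no evidence. The test flags about 1 in 20 groups by chance only where values are normally distributed, which was not checked. The number flagged is therefore not compared with chance. The values are in CPM, and no cause was tested.

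Among the lecticans, Bcan in OPC control replicate 5 was 735 CPM, with the other 5 between 527 and 559 CPM. Acan stood out in oligodendrocyte control replicate 3 at 39.0 CPM against 0.502 to 3.22 CPM, and in astrocyte control replicate 3 at 1.80 CPM against 0 to 0.365 CPM. Both Acan values came from the same littermate number, with 414 and 17 counts.

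Tnc was 6.94 CPM in oligodendrocyte control replicate 6 against 0.555 to 1.51 CPM, 4.00 CPM in oligodendrocyte Rag2-/- replicate 5 against 0 to 0.536 CPM, and 0.970 CPM in microglial Rag2-/- replicate 4 against 0 to 0.212 CPM. Hapln1 in microglial control replicate 6 was 2.63 CPM against 0.465 to 0.968 CPM. Hapln4 in OPC Rag2-/- replicate 6 was 4.80 CPM, below the 7.81 to 8.92 CPM of the other 4.

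Has2 was 0.964 CPM in oligodendrocyte Rag2-/- replicate 3 against 0 to 0.134 CPM, 23.5 CPM in OPC Rag2-/- replicate 1 against 10.1 to 12.9 CPM, and 1.26 CPM in microglial Rag2-/- replicate 4 against 0 to 0.245 CPM.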

How the results depend on the processing

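No member was called for genotype within a cell type under any alternative run for it, and scaling by totals was not run there. Without a filter on low counts 1 member was called between the sexes in astrocytes (Tnr, edgeR adjusted p = 5.32e-08), where 118 of 33626 genes were called. In the genotype by cell type test 1 was called (Acan, edgeR adjusted p = 0.0152), where 1011 of 39266 genes were called. With the filter 0 members were called in each, against 6 of 14725 and 53 of 21368 genes. The filter also set the number of genes called for genotype in oligodendrocytes, OPCs, astrocytes and microglia (14, 90, 30 and 9 without it, 0, 1, 1 and 1 with it), and DESeq2 called 203, 5, 1 and 3 genes. The cause was not tested. Members tested for genotype have SEs of up to 2.08 on the log2 scale (Tnc in oligodendrocytes), and 5 of the 10 had enough counts to be tested in microglia.

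Genotype differences near 0 changed sign with the replicate block (littermate pair) for Bcan in OPCs (0.087), astrocytes (0.043) and microglia (0.084), and for Ncan in astrocytes (-0.0097) and microglia (0.0032). The pairing changed no call for genotype in the members. Between cell types, the block on the mouse gained the call of Acan between control OPCs and oligodendrocytes and lost those of Has2 between control astrocytes and oligodendrocytes and of Bcan between Rag2-/- OPCs and astrocytes (-0.59, adjusted p = 0.051). It changed no other call of a member, and left 5 genes in the genotype by cell type test in place of 53.

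With Rag2+/- controls alone the sign changed for Tnr (0.052) and Hapln2 (0.93) in OPCs, Bcan in astrocytes (0.10) and Ncan in microglia (0.11). With no sex term it changed for Hapln2 in OPCs (0.095) and Bcan in astrocytes (0.026), and with no filter for Bcan in OPCs (0.00053). Scaling by totals turned Ncan between OPCs and astrocytes (0.11 in controls, 0.022 in Rag2-/- mice) and Has2 between Rag2-/- oligodendrocytes and microglia (-0.082), and scaling without mitochondrial genes turned Has2 between Rag2-/- astrocytes and microglia (0.037).

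Leaving out 1 library changed the sign of some genotype differences, none of them called. In oligodendrocytes these ran from -0.0040 to 0.54 for Vcan, -0.062 to 0.45 for Bcan, -1.64 to 0.29 for Acan, -0.55 to 0.32 for Hapln2 and -0.11 to 0.98 for Hapln4. In OPCs they ran from -0.061 to 0.059 for Bcan, -0.27 to 0.088 for Tnc, -0.079 to 0.30 for Hapln1, -0.62 to 0.19 for Hapln2 and -0.018 to 0.39 for Has2. In astrocytes they ran from -0.077 to 0.055 for Bcan, -0.015 to 0.054 for Ncan, -0.17 to 0.039 for Tnc, -0.023 to 0.15 for Hapln1 and -0.24 to 0.20 for Hapln2. In microglia they ran from -0.42 to 0.48 for Vcan, -0.30 to 0.13 for Bcan, -0.32 to 0.29 for Tnr and -0.75 to 0.35 for Hapln4. Between cell types only Has2 changed sign, where both groups were near 0, at -3.22 to 2.03 between control astrocytes and microglia and, in Rag2-/- mice, at -1.21 to 1.51 between these, -1.98 to 1.13 between astrocytes and oligodendrocytes and -1.22 to 2.40 between oligodendrocytes and microglia.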
